A study of Solanum lycopersicum with 12 samples.

Results

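ADH2, BMY3 and PPCK1 are 3 genes of carbon metabolism in tomato (Solanum lycopersicum), an alcohol dehydrogenase, a beta-amylase and a phosphoenolpyruvate carboxylase kinase. All array spots to which the platform annotation gives one of these 3 symbols were taken, which were 9 of 10368 spots, or 3 of 3456 clones, with 1 clone of 3 adjacent spots for each gene. ADH2 (NCBI gene 544074) lay on spots 5713 to 5715, BMY3 (543804) on spots 3979 to 3981 and PPCK1 (543633) on spots 4243 to 4245. All 3 were among the 3018 clones measured on all 12 arrays, and so were 77 of the 79 named clones. The spots were found by symbol, but the genes were selected on their log2 ratios at each time, their 6 hr minus 30 min differences and the ADH2 difference between genotypes, which were already known. Those values are therefore a description and are read as support for nothing.

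RNA from roots of salt-treated and of control seedlings was hybridised together on 2-colour arrays, whose spots carry clones of subtracted libraries. The treated groups were LA2711, a cultivar described as salt tolerant, at 30 min, 2 hr and 6 hr, and ZS-5, described as salt sensitive, at the same 3 times. Each group was set against control RNA, on 2 arrays with the dyes swapped. The salt and its concentration, the age of the seedlings, the number of plants behind an RNA, and whether a control served several times are not stated in the sources used here.

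A dye-swap pair is 1 replicate, so each of the 6 conditions has 1 value, the mean of 2 arrays, and an SD printed with it covers only the spread between these 2 arrays. Tests use the spread between conditions, which may be partly technical. Every value is a log2 ratio between treated and control RNA. All 12 arrays have the same direction, but whether treated or control RNA is the numerator remains unsettled. Values therefore have a positive and a negative side, and none is called an induction. The ratios carry no level of expression, so the labelled tissue could not be checked against root markers. The named gene of photosynthetic tissue, PSBR of photosystem II, has 3 clones, whose centred values at 6 hr were -5.15, -1.95 and -1.78 in LA2711 and -5.19, -0.95 and -0.76 in ZS-5. Its part in the results of the 3 genes was not tested. In RNA of whole roots, fewer cells of a type and less RNA per cell cannot be told apart.

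Alcohol dehydrogenase carries out the last step of ethanol fermentation, in which acetaldehyde is reduced to ethanol and NADH is turned back to NAD, so that glycolysis can run when oxygen is short in roots. Beta-amylase releases maltose from starch and its breakdown products. Phosphoenolpyruvate carboxylase adds bicarbonate to phosphoenolpyruvate and so feeds carbon into malate and the TCA cycle. Its dedicated kinase, the enzyme that PPCK1 encodes, phosphorylates it and makes it less sensitive to inhibition by malate.

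The median of the 3018 clones was subtracted from each array. The array medians lay between -0.56 and 0.49 at 30 min and 2 hr, and between -1.26 and -0.58 at 6 hr. Centring thus shifts every 6 hr value towards the positive side, and uncentred values are given beside centred ones. In 2 other settings all arrays were forced to one spread, by quantile normalization or by scaling to the same median absolute deviation (deviation scaling), and their values are given where they turn a direction. The 36 spot values of each gene were all present, and none of them lay at the limits of the ratio. The SD among the 3 spots of a clone on an array had a median of 0.12 for ADH2, 0.089 for BMY3 and 0.15 for PPCK1. The largest such SD was 0.44, for PPCK1 on the LA2711 2 hr array with treated RNA in Cy5, where its spots read -0.18, -0.79 and -1.03 uncentred.

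**Figure D1:**
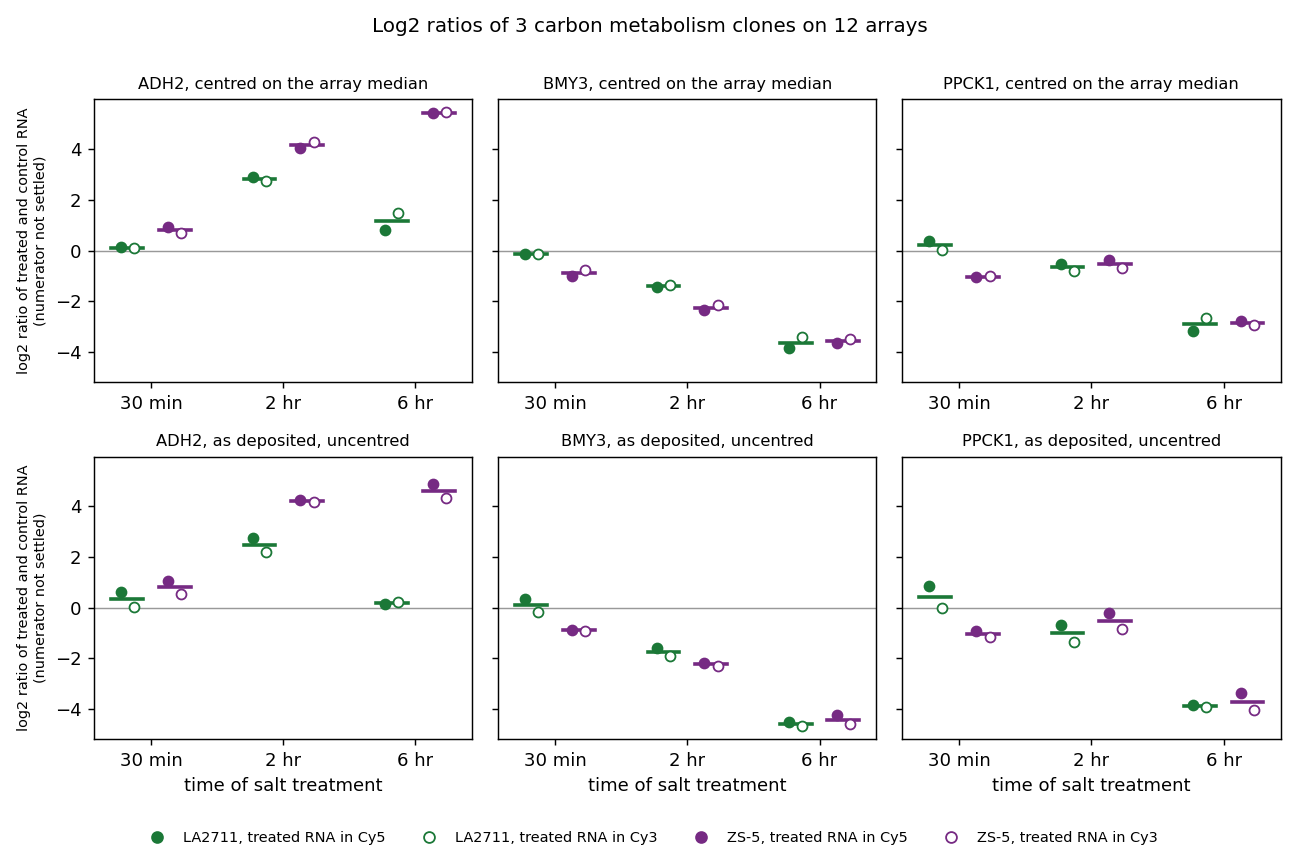
Log2 ratio of treated and control RNA (vertical axis) of ADH2, BMY3 and PPCK1 at 30 min, 2 hr and 6 hr of salt treatment, centred on the array median (top) and as deposited (bottom). Each circle is 1 array, filled for treated RNA in Cy5 and open for Cy3, with LA2711 in green at the left and ZS-5 in purple at the right of each time, and the bar is the mean of the 2 arrays. ADH2 lies at 1.16 in LA2711 and 5.45 in ZS-5 at 6 hr, while the means of BMY3 and PPCK1 at 6 hr lie between -3.63 and -2.85 in both genotypes.

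ADH2 lay well on the positive side at 2 hr in both genotypes, and at 6 hr in ZS-5 but hardly in LA2711. At 30 min its centred log2 ratios were 0.14 and 0.09 on the LA2711 arrays, against 0.72 and 0.94 on the ZS-5 arrays. These are small values on the positive side, and the arrays of LA2711 lie below those of ZS-5 without overlap. At 2 hr the LA2711 arrays read 2.90 and 2.75, against 4.07 and 4.30 for ZS-5. The means were 2.82 ± 0.11 in LA2711 and 4.19 ± 0.16 in ZS-5 (SD, n = 2 arrays), or 7.08-fold and 18.2-fold from a ratio of 1. At 6 hr the LA2711 arrays read 0.83 and 1.49, against 5.44 and 5.46 for ZS-5. The means were 1.16 ± 0.46 in LA2711 and 5.45 ± 0.013 in ZS-5, or 2.23-fold and 43.8-fold from 1. Uncentred, the 6 hr means were 1.14-fold and 24.2-fold from 1. LA2711 thus stood closer to 0 at 6 hr than at 2 hr, in all 4 scalings, while ZS-5 stood further away, centred and uncentred only. In ZS-5 the 6 hr value was 3.73, against 3.99 at 2 hr, with quantile normalization, and 2.60, against 3.93, with deviation scaling, so that the direction in ZS-5 turned.

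Without centring the values moved the same way, with LA2711 back near its 30 min value. At 30 min the uncentred arrays read 0.63 and 0.05 in LA2711, against 0.56 and 1.06 in ZS-5, so the genotypes overlapped there. At 2 hr they read 2.75 and 2.19 in LA2711, against 4.23 and 4.16 in ZS-5, and at 6 hr 0.15 and 0.22 in LA2711, against 4.86 and 4.33 in ZS-5. At 6 hr the 3 spots gave 0.26, 0.15 and 0.02 on the LA2711 array with treated RNA in Cy5 and 0.20, 0.14 and 0.32 on the one in Cy3. The matching ZS-5 spots gave 4.84, 4.84 and 4.92 in Cy5 and 4.37, 4.30 and 4.33 in Cy3. At 6 hr every ADH2 spot in LA2711 lay below every one in ZS-5, whatever the dye.

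Among all 3018 clones, ADH2 stood far out in ZS-5. At 2 hr 7 clones, ADH2 included, lay at least as far to the positive side in ZS-5 (0.232%), and at 6 hr 15 did (0.497%). In LA2711 the numbers were 86 (2.85%) at 2 hr and 978 (32.4%) at 6 hr. Past 2-fold on both arrays of a condition, on the positive side, ADH2 was counted at 2 hr in both genotypes and at 6 hr in ZS-5. The share of all clones counted so was 14.1% in LA2711 and 19.4% in ZS-5 at 2 hr, and 36.4% in ZS-5 at 6 hr. It was not counted at 6 hr in LA2711, where one array lay under 1, nor at 30 min.

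The LA2711 minus ZS-5 difference of ADH2 was -0.71 at 30 min, -1.36 at 2 hr and -4.29 at 6 hr. Taking each LA2711 array against each ZS-5 array, it ranged from -0.85 to -0.57, from -1.55 to -1.17 and from -4.63 to -3.96. By size it ranked 525th of 3018 clones at 30 min, 69th at 2 hr and 2nd at 6 hr. Uncentred, the differences were -0.47, -1.72 and -4.41, and the 6 hr rank was also 2. With quantile normalization they were -0.98, -1.33 and -3.35, with rank 1 at 6 hr. With deviation scaling they were -1.19, -0.88 and -1.97, with rank 3 at 6 hr, so the 6 hr difference was smaller and the differences did not grow at each step. The largest difference at 6 hr was -4.79, that of an unnamed clone on spots 4417 to 4419. At or beyond -2 were 22 clones, of which 2 carry a name, ADH2 and a clone of LOC544267 at -2.25, and no clone lay at or above 2. The SD of this difference over all clones was 0.56 at 6 hr.

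**Figure D2:**
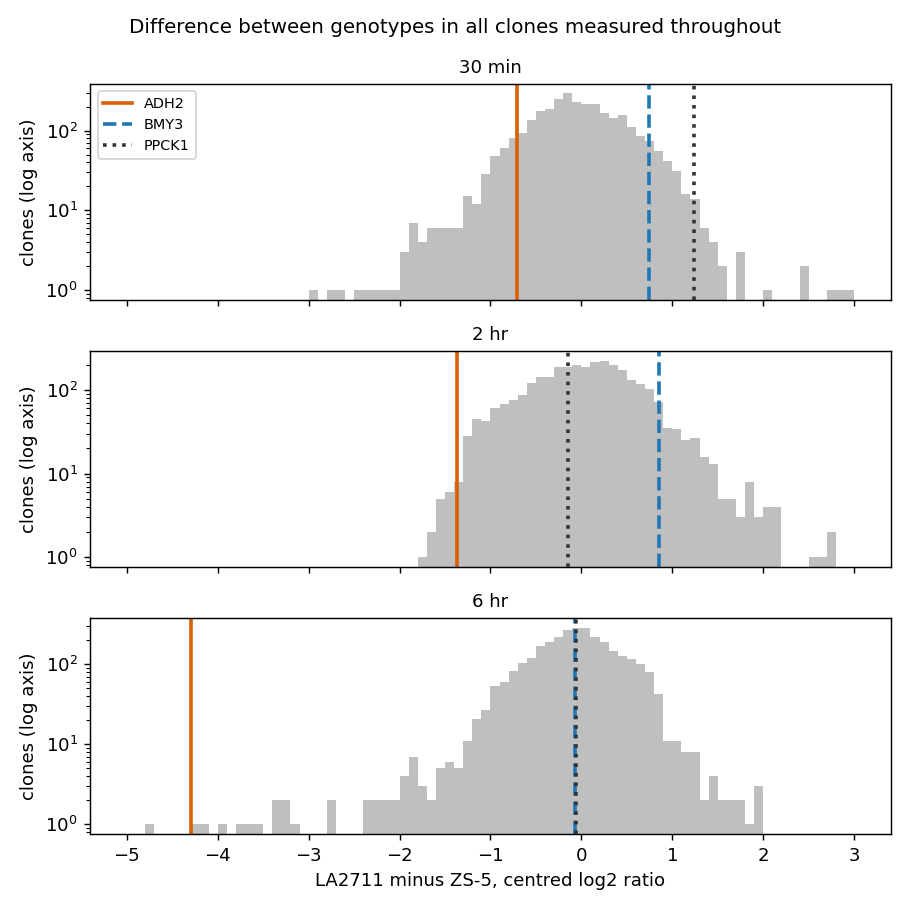
Histograms of the LA2711 minus ZS-5 difference in centred log2 ratio (horizontal axis) over 3018 clones at 30 min, 2 hr and 6 hr, with the number of clones on a log axis. Vertical lines mark ADH2 (solid), BMY3 (dashed) and PPCK1 (dotted). ADH2 lies at -0.71 at 30 min, -1.36 at 2 hr and -4.29 at 6 hr (-1.19, -0.88 and -1.97 with deviation scaling), while BMY3 and PPCK1 lie at -0.07 and -0.06 at 6 hr, in the middle of all clones.

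The difference between genotypes was tested over the 3 times with limma, in which a difference that grows with time counts partly as spread. The mean LA2711 minus ZS-5 difference of ADH2 was -2.12 ± 0.61 (SE, 6 conditions, limma adjusted p = 0.482), with the same sign at 3 of 3 times, and it did not pass. The tests between genotypes, for all 3 genes, are computed from the ratios the genes were selected on, so their p-values only place the genes among all clones and support nothing. Of all clones 0% were called (0 of 3018, with 196 at an unadjusted p under 0.05). Leaving out either the LA2711 or the ZS-5 arrays of 30 min gave the same fit, since the genotype difference then rests on 2 hr and 6 hr alone. The ADH2 difference was then -2.83 and passed. That fit leaves out the time at which the known centred difference of ADH2 was smallest, so the pass supports nothing.

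The change per step of time was also set between genotypes, with 1 residual degree of freedom and from the same known ratios. For ADH2 the LA2711 minus ZS-5 difference in change per step was -1.79 ± 0.43 (SE, limma adjusted p = 1). Here too 0% of clones were called, with 38 at an unadjusted p under 0.05. ADH2 passed in 3 of 12 fits that each left out 1 array, and did not pass in the others. The 3 were without LA2711 6 hr replicate 2 (-1.95, limma adjusted p = 0.0129), without ZS-5 30 min replicate 2 (-1.85, 0.0335) and without ZS-5 6 hr replicate 1 (-1.79, 0.0423). In these fits 5, 4 and 5 of 3018 clones were called. With 1 replicate a condition, the 6 hr difference by itself has no test.

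Between 2 hr and 6 hr the sign of the ADH2 difference in ZS-5 depended on the scaling. Its 6 hr minus 2 hr difference was -1.66 in LA2711 and 1.26 in ZS-5 (-2.29 and 0.40 uncentred), but -2.27 and -0.25 with quantile normalization and -2.41 and -1.33 with deviation scaling. Centred, 226 clones (7.49%) were lower at 6 hr in LA2711 and higher in ZS-5, and uncentred 211 (6.99%), ADH2 among both. At least 1 below its 2 hr value in LA2711 and at least 1 above it in ZS-5 were 11 of 3018 clones. ADH2 was 1 of them and the others were unnamed. Uncentred there were 5, without ADH2. Apart from ADH2, 85 clones were at least as positive in LA2711 at 2 hr. Of these, 22 had a lower value at 6 hr, and in 4 the difference was at least as negative as that of ADH2. The median of their 6 hr minus 2 hr difference was 0.38. Uncentred, 64 of 85 had a lower value at 6 hr, again 4 of them by at least as much as ADH2, and the median was -0.24. The other 14 clones at least as positive as ADH2 in ZS-5 at 6 hr, all unnamed, lay between 3.97 and 6.33 in LA2711, where ADH2 lay at 1.16. These counts were chosen after the ADH2 values were seen.

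**Figure D3:**
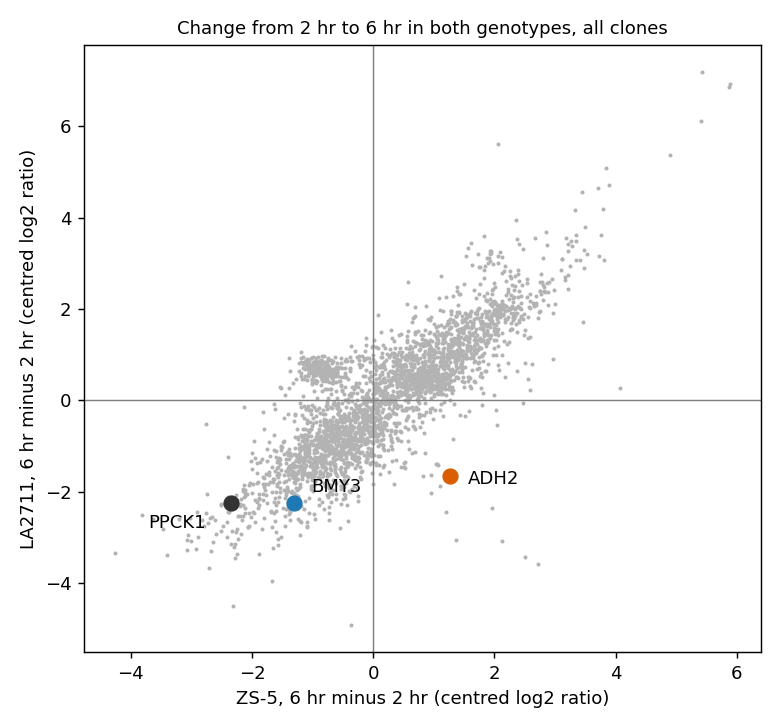
Difference of 6 hr minus 2 hr in centred log2 ratio for 3018 clones, in LA2711 (vertical axis) and ZS-5 (horizontal axis), each grey point being 1 clone. ADH2 lies at -1.66 in LA2711 and 1.26 in ZS-5 (the ZS-5 value being -0.25 with quantile normalization and -1.33 with deviation scaling), while BMY3 (-2.24 and -1.31, the ZS-5 value being 0.41 with deviation scaling) and PPCK1 (-2.25 and -2.34) lie below 0 in both genotypes with many others.

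BMY3 lay on the negative side at 2 hr and 6 hr in both genotypes, further at 6 hr, and at 6 hr both had nearly the same centred value. In ZS-5 the order of the times depended on the scaling, at -2.45, -2.26 and -2.57 from the earliest to the latest with quantile normalization and -1.63, -2.11 and -1.70 with deviation scaling. At 30 min its centred log2 ratios were -0.14 and -0.11 on the LA2711 arrays, against -0.76 and -0.98 on the ZS-5 arrays. LA2711 lay close to 0, and ZS-5 lay lower on both arrays. At 2 hr the LA2711 arrays read -1.42 and -1.35, against -2.33 and -2.15 for ZS-5, again without overlap. At 6 hr the LA2711 arrays read -3.84 and -3.42, against -3.64 and -3.47 for ZS-5, and the 2 genotypes overlapped. The 6 hr means were -3.63 ± 0.30 in LA2711 and -3.56 ± 0.12 in ZS-5 (SD, n = 2 arrays). They stand for 12.4-fold and 11.8-fold from a ratio of 1, or 24.3-fold and 21.3-fold uncentred.

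The LA2711 minus ZS-5 difference of BMY3 was 0.74 at 30 min, 0.86 at 2 hr and -0.07 at 6 hr, and by size it ranked 465th, 442nd and 2610th of 3018 clones. Uncentred it was 0.98, 0.50 and -0.20. Over the 3 times it came to 0.51 ± 0.27 (SE, limma adjusted p = 0.899) and did not pass, with 2 of 3 times on the positive side. The difference in change per step was -0.41 ± 0.38 (SE, limma adjusted p = 1). Neither p shows that the genotypes act alike.

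Many clones were as far from 0 as BMY3. At 6 hr 324 clones (10.7%) lay at least as far to the negative side in LA2711 and 362 (12%) in ZS-5, and 298 other clones did so in both. Past 2-fold on the negative side on both arrays, it was counted at 2 hr and 6 hr in both genotypes. The share of all clones counted so was 27% in LA2711 and 28.1% in ZS-5 at 2 hr, and 35.2% in LA2711 and 37.3% in ZS-5 at 6 hr.

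PPCK1, centred, lay within or close to 2-fold of 0 at 30 min and 2 hr, and on the negative side in both genotypes at 6 hr. In ZS-5 the other scalings turned this order, with -2.04 at 6 hr, against -2.87 at 30 min, with quantile normalization, and -1.36, against -1.92, with deviation scaling. At 30 min its centred log2 ratios were 0.39 and 0.05 on the LA2711 arrays, against -0.99 and -1.05 on the ZS-5 arrays. Both LA2711 arrays lay above 0 and both ZS-5 arrays below it. At 2 hr the LA2711 arrays read -0.52 and -0.80, against -0.35 and -0.67 for ZS-5, and the genotypes overlapped. At 6 hr the LA2711 arrays read -3.16 and -2.65, against -2.79 and -2.91 for ZS-5, with overlap once more. The 6 hr means were -2.90 ± 0.36 in LA2711 and -2.85 ± 0.09 in ZS-5 (SD, n = 2 arrays), or 7.49-fold and 7.20-fold from a ratio of 1, and 14.7-fold and 13.0-fold uncentred.

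The 30 min difference of PPCK1 between genotypes, LA2711 minus ZS-5, was 1.24 and ranked 85th of 3018 clones by size (2.82%). Its size uncentred was 1.48, at rank 51. It was 3.22 with quantile normalization (rank 24) and 2.59 with deviation scaling (rank 195). On the LA2711 arrays of 30 min the uncentred values depended on the dye, at 0.87 with treated RNA in Cy5 and 0.002 in Cy3. The array medians differed in the same direction, at 0.49 and -0.05. Centring takes out only that part of the gap between dyes, and leaves 0.39 in Cy5 and 0.05 in Cy3. At 2 hr and 6 hr the PPCK1 difference was -0.15 and -0.06. Over the 3 times it was 0.34 ± 0.32 (SE, limma adjusted p = 0.991), and -0.10 without either 30 min condition. The difference in change per step was -0.65 ± 0.39 (SE, limma adjusted p = 1).

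At 6 hr 503 clones (16.7%) in LA2711 and 567 (18.8%) in ZS-5 were at least as negative as PPCK1. Of 468 other clones at least as negative in both genotypes at 6 hr, 11 were like PPCK1 within 2-fold of 0 at 2 hr in both. This count is of centred values and was chosen after the PPCK1 values were seen. Uncentred, PPCK1 itself lay at -1.01 in LA2711 at 2 hr, past 2-fold, and at -0.50 in ZS-5. PPCK1 was past 2-fold on the negative side on both arrays at 6 hr in both genotypes, where 35.2% of all clones in LA2711 and 37.3% in ZS-5 were. In ZS-5 at 30 min it missed this mark on 1 array, at -0.99.

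Changes from time to time were tested with genotype as a covariate, so that the 2 genotypes serve as replicates. The 2 hr minus 30 min and 6 hr minus 2 hr differences are taken between the values the genes were selected on. Their p-values and calls therefore only place the genes among all clones and support nothing. From 30 min to 2 hr, ADH2 differed by 3.03 ± 0.75 (SE, limma adjusted p = 0.0163) and BMY3 by -1.32 ± 0.33 (SE, limma adjusted p = 0.0179). PPCK1 differed by -0.18 ± 0.39 (SE, limma adjusted p = 0.734) and did not pass, with LA2711 at -0.88 and ZS-5 at 0.51. Over all 3018 clones the calls came to 11.5% on the positive side and 24.8% on the negative side. The ADH2 call was lost without centring (2.76, limma adjusted p = 0.0672), where 3.71% of clones were called positive. It was also lost without the LA2711 2 hr, ZS-5 30 min or ZS-5 2 hr arrays, with 2.47, 1.98 and 3.60. The BMY3 call was lost without the LA2711 30 min arrays (-1.14) or the ZS-5 2 hr arrays (-1.06).

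From 2 hr to 6 hr, PPCK1 differed by -2.29 ± 0.39 (SE, limma adjusted p = 0.00399), with -2.25 in LA2711 and -2.34 in ZS-5. BMY3 differed by -1.78 ± 0.33 (SE, limma adjusted p = 0.00536), with -2.24 in LA2711 and -1.31 in ZS-5, the ZS-5 value being 0.41 with deviation scaling. ADH2 differed by -0.20 ± 0.75 (SE, limma adjusted p = 0.85), a mean of opposite values in the 2 genotypes when centred or uncentred, and of negative values in both under the other scalings. Over all clones the calls came to 24.1% on the positive side and 19.2% on the negative side. The BMY3 call was lost without the LA2711 6 hr arrays (-1.34). With arrays forced to one spread, by quantile normalization or by scaling to the same median absolute deviation, no clone was called in this comparison by limma. The BMY3 and PPCK1 calls from 2 hr to 6 hr, and the BMY3 call from 30 min to 2 hr, were lost in this way.

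In the comparisons known beforehand, the calls (limma adjusted p under 0.05) stood against a high share of all clones. At 30 min none of the 3 was called, at 0.47 ± 0.79 for ADH2, -0.50 ± 0.27 for BMY3 and -0.40 ± 0.28 for PPCK1 (SE, mean of both genotypes), where 18.2% of clones were. At 2 hr ADH2 was called positive at 3.51 ± 0.79 and BMY3 negative at -1.82 ± 0.27, where 32.2% of clones were called positive and 36.6% negative. PPCK1 at -0.58 ± 0.28 was not. At 6 hr all 3 were called, ADH2 at 3.31 ± 0.79, BMY3 at -3.59 ± 0.27 and PPCK1 at -2.88 ± 0.28, where 44.9% were called positive and 42.4% negative. For 6 hr minus 30 min all 3 were called, at 2.83 ± 0.75, -3.09 ± 0.33 and -2.48 ± 0.39, where 41.6% were called positive and 35.9% negative. The ADH2 call of this last comparison was lost without centring (1.82), where 16.3% of clones were called positive, and without the ZS-5 6 hr arrays (1.21). All 3 calls of it were lost with arrays forced to one spread. The ADH2 call at 2 hr was lost without the ZS-5 2 hr arrays (2.82). With arrays forced to one spread the ADH2 call at 6 hr was lost, and with median absolute deviation scaling that of PPCK1 too.

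The named genes nearest to each of the 3, by the root mean square difference of centred log2 ratios over the 6 conditions, were looked up as a description. The 6 points of a gene share their arrays and most clones move with time, so the correlations given are high for many clones. For ADH2 they were GluB, a beta-1,3-glucanase (spots 9247 to 9249, difference 0.90, Pearson r = 0.92), LOC543878 (spots 7648 to 7650, 1.24, r = 0.78) and GS2 (spots 1831 to 1833, 1.47, r = 0.69). This GluB clone had 2.19 in LA2711 and 3.76 in ZS-5 at 6 hr, and 3.26 and 4.37 at 2 hr. The other GluB clone had 1.47 in LA2711 and 2.19 in ZS-5 at 6 hr, and 3.06 and 3.48 at 2 hr. The LA2711 minus ZS-5 difference at 6 hr was -1.57 in the nearer clone and -0.72 in the other. Both clones were closer to 0 at 6 hr than at 2 hr in LA2711 and in ZS-5. For ADH2 in ZS-5 this held with quantile normalization and deviation scaling but not centred or uncentred. Of the 3017 other clones, 11 lay within a difference of 1 of ADH2, against 466 for BMY3 and 434 for PPCK1.

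For BMY3 the nearest were the phytoene synthase gene PSY2 (difference 0.52, r = 0.95), the ethylene response factor gene ERF3 (0.66, r = 0.99) and the amino acid permease gene AAP2 (0.72, r = 0.97). For PPCK1 they were ACS7, an aminocyclopropane carboxylate synthase of ethylene synthesis (0.58, r = 0.93), MTSHP, which encodes a small heat shock protein of mitochondria (0.61, r = 0.89), and AAP2 (0.88, r = 0.80). ACS7 and MTSHP lay between -0.98 and 0.23 in both genotypes at 30 min and 2 hr, and between -3.37 and -1.89 at 6 hr. BMY3 and PPCK1 lay 0.89 apart (r = 0.90), closer than either was to ADH2, at 5.26 for BMY3 and 4.53 for PPCK1.

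**Figure D4:**
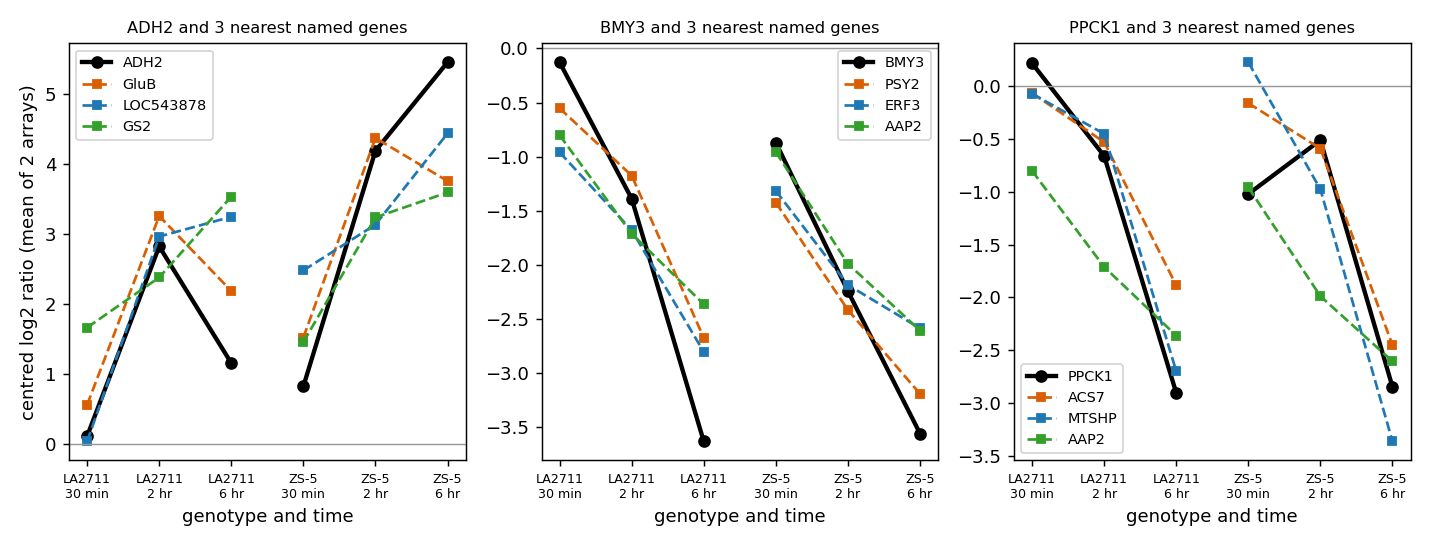
Centred log2 ratio (vertical axis, mean of 2 arrays) in LA2711 and then ZS-5 at 30 min, 2 hr and 6 hr, for ADH2, BMY3 and PPCK1 (black circles) and the 3 named genes nearest to each (coloured squares). No gene near ADH2 comes as close to 0 in LA2711 at 6 hr, where ADH2 lies at 1.16 and GluB at 2.19. The other GluB clone, which is not drawn, lies there at 1.47. The genes near BMY3 also become more negative with time. In LA2711 at 6 hr they lie between -2.80 and -2.36, against -3.63 for BMY3.

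Of the related pathways, the named clones hold 1 gene of fermentation and glycolysis (ADH2), 1 of starch and sucrose (BMY3) and 1 of phosphoenolpyruvate carboxylase and organic acids (PPCK1), as matched by symbol or synonym. Genes named only by a LOC number, without a synonym, could not be matched to any pathway. The genes that join carbon and nitrogen metabolism are 3, with 4 clones. They are GS2 and gts1, of glutamine synthetase, and the glutamate decarboxylase gene GAD2. At 6 hr 4 of the 4 clones, with GS2 counted for each of its 2, were called on the positive side and 0 on the other, where 44.9% of all clones were called positive. Their median was 2.89, against -0.04 over all clones. With quantile normalization and with deviation scaling the 2 GS2 clones were called and the calls of GAD2 and gts1 were lost. GAD2 lay at 2.30 in LA2711 and 2.55 in ZS-5 at 6 hr, GS2 (spots 1831 to 1833) at 3.53 and 3.59, and gts1 at 1.59 and 1.15. The gts1 call was lost without centring (0.45, limma adjusted p = 0.188). Between 30 min and 2 hr 2 of the 4 were called, both clones of GS2 on the positive side, with 1.25 each, where 11.5% of all clones were called positive. Both calls were lost without centring (0.97 each, limma adjusted p = 0.16 and 0.182) and with the other scalings, and both values were negative with deviation scaling (-1.11 and -0.95). Between 2 hr and 6 hr 1 of 4 was called, GAD2 at 2.48 (limma adjusted p = 0.0236), where 24.1% of all clones were called positive. This call was lost without centring (limma adjusted p = 0.083) and with the other scalings. None was called for LA2711 minus ZS-5, as for all clones. At 6 hr these genes lay on the side of ADH2 and opposite to BMY3 and PPCK1.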

How the data were processed

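The authors deposited 1 log2 ratio of treated and control RNA per spot and array, for 12 arrays. Background correction, normalization and scanner are not stated in the sources used here. The inverted ratio had 3 decimals in 100% of spots where Cy5 marked treated RNA, as the ratio had where Cy3 did, within the rounding of the deposited log2, so the sign of one orientation had been turned before deposit. Spots with a ratio or inverse of 0.001 or less (366 values) were left out, and the 3 adjacent spots of a clone were averaged. Clones on all arrays were kept (3018), each array was centred on its median and each dye-swap pair averaged. Tests used limma 3.58.1 in R 4.3.3 (lmFit and eBayes, 2-sided), with Benjamini-Hochberg adjustment over all 3018 clones at 0.05. The fits were also run on simulated data with independent normal errors, where mean estimates had to lie near the planted differences. No requirement was set there on calls or false calls, and errors shared by an array were not simulated. The number of arrays limits the precision. Symbols came from the platform annotation, and no sequence or genome coordinate was used here. Genes named beside the 3 members are the 3 nearest per member and all named genes of the pathway lists. The members, lists and alternatives were chosen with earlier results of these data known. Alternatives were other scalings, other spot rules, the 12 arrays as separate samples, and leaving out arrays or conditions.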

Additional observations from a re-analysis of the deposited data

Results flagged for a closer look

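At 30 min the LA2711 minus ZS-5 difference of PPCK1 was 1.24, and it stands out because both LA2711 arrays (0.39 and 0.05) lay above 0 and both ZS-5 arrays (-0.99 and -1.05) below it. The difference was 3.22 with quantile normalization, where the arrays do not all keep these signs, and 2.59 with deviation scaling, where they do. This difference was not tested, since each condition has 1 replicate. One LA2711 array lies within 0.1 of 0. Of all 3018 clones, 178 (5.90%) show the same signs on these 4 arrays, and 298 (9.87%) uncentred, and 29 clones, PPCK1 included, had a difference at least as positive.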

How the results depend on the processing

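Of 24 member results, all 24 kept direction and side of the threshold with spots at the limits kept, with the median of spots and with clones of all 3 spots. Without centring 22 did, and the ADH2 calls for 6 hr minus 30 min (1.82) and 2 hr minus 30 min (2.76) were lost. Quantile normalization and scaling to the same median absolute deviation force all arrays to one spread, and the spread of all clones grew with time. With quantile normalization the lost calls were ADH2 at 6 hr (2.06), ADH2, BMY3 and PPCK1 for 6 hr minus 30 min (1.44, -0.98 and -0.85), BMY3 for 2 hr minus 30 min (-0.38), and BMY3 and PPCK1 for 6 hr minus 2 hr (-0.60 and -1.18). BMY3 at 30 min became called (-1.66), and PPCK1 for 2 hr minus 30 min changed sign (0.33). With the deviation scaling the lost calls were ADH2 and PPCK1 at 6 hr (1.62 and -1.48), the 3 genes for 6 hr minus 30 min (0.67, -0.84 and -0.85), BMY3 for 2 hr minus 30 min (-0.79), and BMY3 and PPCK1 for 6 hr minus 2 hr (-0.041 and -0.88), and PPCK1 for 2 hr minus 30 min was 0.030.

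With the 12 arrays as separate samples, BMY3 at 30 min (-0.50), PPCK1 at 2 hr (-0.58), ADH2 for LA2711 minus ZS-5 (-2.12) and ADH2 in change per step (-1.79) became called, with and without the replicate block and with the dye orientation as a term. This counts a dye-swap pair as 2 samples. The replicate numbers do not pair the conditions: deviations of replicate 1 correlated between conditions by -0.56 to 0.86, and those of the arrays with treated RNA in Cy5 by 0.45 to 0.86.

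Leaving out each array or condition in turn gave 0.12 to 0.83 for ADH2, -0.87 to -0.13 for BMY3 and -1.02 to 0.22 for PPCK1 at 30 min, 1.16 to 5.45 for ADH2 at 6 hr, 2.82 to 4.19 for ADH2 and -0.67 to -0.50 for PPCK1 at 2 hr, 1.21 to 4.46 for ADH2 in 6 hr minus 30 min, and 1.98 to 4.09 for ADH2, -1.58 to -1.06 for BMY3 and -0.85 to 0.49 for PPCK1 in 2 hr minus 30 min. It gave -1.83 to 1.43 for ADH2 and -2.21 to -1.34 for BMY3 in 6 hr minus 2 hr, -2.83 to -1.04 for ADH2 and -0.10 to 0.59 for PPCK1 in LA2711 minus ZS-5, and -1.95 to -1.63 for ADH2 in change per step. Leaving out a condition also gained calls. Without either 30 min condition these were ADH2 for LA2711 minus ZS-5 and PPCK1 at 2 hr. Without the ZS-5 6 hr arrays ADH2 was gained for 6 hr minus 2 hr (-1.83). The change per step could not be fitted without a whole condition. Except where stated, the cause was not tested.

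Counts of called clones moved by over 1.5 times as follows. Against 550 at 30 min there were 1702 after quantile normalization, 1384 after deviation scaling, 1280 to 1368 with 12 arrays and 238 without the ZS-5 30 min arrays. Against 2635 at 6 hr there were 1619 after deviation scaling, and against 2337 for 6 hr minus 30 min 1114 after quantile normalization and 808 after deviation scaling. Against 1096 for 2 hr minus 30 min there were 688 after deviation scaling, 1889 to 2007 with 12 arrays, and 705 and 628 without the ZS-5 30 min and 2 hr arrays. Against 1308 for 6 hr minus 2 hr there were 0 after either scaling, 2119 to 2203 with 12 arrays, and 669 and 649 without the LA2711 and ZS-5 6 hr arrays. Against 0 for LA2711 minus ZS-5 there were 219 to 270 with 12 arrays, 12 without either 30 min condition and 1 without either 6 hr condition. Against 0 for change per step there were 40 after deviation scaling, 41 to 101 with 12 arrays, and 1 to 5 without single arrays. Intensities were not used here, so signal over background is not known.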
